A study of Mus musculus with 36 samples.

Results

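The change of the IFN alpha response between the first and the third hour was measured in newly transcribed RNA of NIH-3T3 cells, an established mouse fibroblast line. For each gene, IFN alpha minus mock at 150-180 min was set against IFN alpha minus mock at 30-60 min, and the difference between the responses is called the shift. Of the 36 arrays in the series, 12 enter this difference, with 3 arrays in each of 4 groups, and 9549 genes were tested. The groups were IFN alpha at 150-180 min, mock at 150-180 min, IFN alpha at 30-60 min and mock at 30-60 min. IFN alpha was given at 100 U/ml in fresh prewarmed medium, the mock cells got the same change of medium without interferon, and all 4 groups were labelled for the last 30 min with 500 µM 4-thiouridine (4sU), a uridine analog that marks RNA made while it is present. All cells were between the 5th and the 15th passage after thawing and were close to full density when the medium was changed. The labels number the arrays 1 to 3 but do not say if each came from a culture of its own, and the p-values cover the spread between these arrays and nothing beyond it.

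Type I interferons bind the receptor Ifnar1-Ifnar2 and activate the kinases Jak1 and Tyk2. The transcription factor complex ISGF3, to which Stat2 and Irf9 belong, then binds interferon-stimulated response elements (ISRE), while Stat3 dimers bind gamma-activated sites (GAS). Among the induced genes are antiviral enzymes and RNA sensors, further transcription factors such as Irf1 and Irf7, and inhibitors of the pathway such as Socs1, Socs3 and Usp18.

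Between the first and the third hour more genes passed the test with a larger response to IFN alpha than with a smaller one. The shift was higher in 41 genes (0.429% of the 9549 tested) and lower in 4 (0.0419%), at an adjusted p under 0.05 in limma with Benjamini-Hochberg adjustment over all tested genes. In 38 of the 41 the level in IFN alpha arrays was itself higher in the later window, and these are called late gain. In 3 of the 4 lower genes, Irf1, Socs3 and Tnfaip2, a response present at 30-60 min was smaller at 150-180 min and the level in IFN alpha arrays was itself lower, and these are called shut-off. The other 4 called genes were Ccl2, Adar and Cask among the higher genes and Samhd1 among the lower. Their mock level changed between the windows, and their IFN alpha level fell or was not called. A mock change is not particular to them: it was called higher in 53.4% and lower in 10.7% of all tested genes. It was also called in the 3 shut-off genes (2 higher, 1 lower). The split into higher and lower shifts depended on the fit. It was 39 higher and 10 lower after quantile normalisation. With array weights, which called many more genes, it was 365 higher and 516 lower. The number of lower genes also moved with the arrays fitted: it was 12 with only the 12 arrays compared, 8 without mock array 1 of 30-60 min, and 7 without IFN alpha array 1 or array 3 of 30-60 min, and 6 genes were shut-off without IFN alpha array 1 of 30-60 min. All values are log2 units of the authors' normalised intensity, and all errors of differences are standard errors of the fit.

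The promoter windows of 5 called genes are shown here, picked because they hold motif letters to which ISGF3 or Stat3 dimers are known to bind. They are not typical, since most late gain windows held no ISRE core letters. The windows of Tnfaip2 and Herc6, which held neither motif, are not shown. Each window runs from 250 bases before to 50 bases after the RefSeq transcription start (build GRCm38.p6) and is printed 5′ to 3′ on the gene's strand. Capitals mark a GAS match (TTCNNNGAA) or an ISRE core match (GAAA, any 2 bases and GAAA), both searched on both strands. Irf1 lies at chr11:53769764-53770063, plus strand, and Socs3 at chr11:117969317-117969616, minus strand. Oas1a lies at chr5:120907476-120907775, minus strand, Bst2 at chr8:71537423-71537722, minus strand, and Ifih1 at chr2:62646206-62646505, minus strand.
Irf1: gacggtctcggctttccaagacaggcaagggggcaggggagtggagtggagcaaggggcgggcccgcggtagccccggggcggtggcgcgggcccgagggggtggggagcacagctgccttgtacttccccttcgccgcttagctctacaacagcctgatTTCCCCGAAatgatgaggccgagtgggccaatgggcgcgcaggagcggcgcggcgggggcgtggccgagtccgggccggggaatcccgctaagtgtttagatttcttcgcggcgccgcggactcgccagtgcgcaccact
Socs3: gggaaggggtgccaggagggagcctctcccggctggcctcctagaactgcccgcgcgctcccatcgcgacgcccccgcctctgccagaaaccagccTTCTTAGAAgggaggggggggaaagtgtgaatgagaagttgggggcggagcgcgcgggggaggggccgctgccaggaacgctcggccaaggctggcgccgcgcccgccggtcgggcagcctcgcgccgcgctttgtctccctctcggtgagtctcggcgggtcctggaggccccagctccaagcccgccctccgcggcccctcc
Oas1a: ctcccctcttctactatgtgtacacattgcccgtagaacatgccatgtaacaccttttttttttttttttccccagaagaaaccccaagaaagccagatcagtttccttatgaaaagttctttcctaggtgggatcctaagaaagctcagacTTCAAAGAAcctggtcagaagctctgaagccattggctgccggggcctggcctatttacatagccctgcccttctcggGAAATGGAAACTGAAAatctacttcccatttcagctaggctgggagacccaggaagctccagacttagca
Bst2: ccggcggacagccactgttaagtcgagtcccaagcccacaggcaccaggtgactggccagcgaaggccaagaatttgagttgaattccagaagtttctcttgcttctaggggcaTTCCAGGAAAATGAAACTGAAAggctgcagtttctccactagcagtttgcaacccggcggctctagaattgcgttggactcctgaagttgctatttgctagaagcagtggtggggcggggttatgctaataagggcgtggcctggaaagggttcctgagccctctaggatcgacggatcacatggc
Ifih1: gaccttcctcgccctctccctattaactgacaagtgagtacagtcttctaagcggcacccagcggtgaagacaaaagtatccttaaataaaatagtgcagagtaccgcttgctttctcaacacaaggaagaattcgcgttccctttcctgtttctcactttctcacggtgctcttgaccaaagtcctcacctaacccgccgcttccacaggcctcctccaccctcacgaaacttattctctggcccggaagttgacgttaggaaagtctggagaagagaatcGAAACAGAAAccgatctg
The Irf1 window held the GAS letters TTCCCCGAA, which begin 90 bases before the start, and the Socs3 window held TTCTTAGAA 154 bases before it. In Oas1a the ISRE core letters GAAATGGAAA and GAAACTGAAA overlapped each other, 20 and 14 bases before the start, and TTCAAAGAA lay 98 bases before it. In Bst2 GAAAATGAAA overlapped GAAACTGAAA and also the GAS letters TTCCAGGAA, which begin 136 bases before the start. GAAACTGAAA did not reach the GAS letters. In Ifih1 GAAACAGAAA began 33 bases after the start.

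Before the results, the quality of the arrays bears on the spread used in the tests. Within each of the 4 groups the arrays correlated at 0.97 to 0.995 over the tested genes, and the median standard deviation was 0.145 for IFN alpha and 0.144 for mock at 150-180 min, and 0.219 for IFN alpha and 0.207 for mock at 30-60 min. One array outside these groups stood apart: array 1 of the mock cells labelled for the whole first hour correlated at 0.91 and 0.911 with the other arrays of its group, which correlated at 0.987 with each other. It enters no contrast but adds to the spread, and without it 50 genes were called higher and 18 lower, among them all 45 called with it. The median tested gene was higher by 0.5 at 150-180 min than at 30-60 min in IFN alpha arrays and by 0.55 in mock arrays. In the later window 50.6% of tested genes were called higher in IFN alpha arrays and 53.4% in mock arrays, and 10.6% and 10.7% were called lower. The BioC hybridisation controls moved the other way, with means of 6.82 (IFN alpha) and 6.71 (mock) at 150-180 min and 8.91 and 9.05 at 30-60 min. The 3′ minus 5′ value of Gapdh, a sign of RNA quality, ranged over -0.47 to -0.15 (IFN alpha) and -0.51 to -0.35 (mock) at 150-180 min, and over -0.57 to 0.73 and -0.48 to 0.59 at 30-60 min. The part of these control differences in the level changes between windows was not tested. The shift subtracts what is common to IFN alpha and mock arrays of a window, and its median over all tested genes was -0.052. Fibroblast markers were all tested (15 of 15 on the array, median level 10.89), and their summed level lay at 15.65 to 15.76 (IFN alpha) and 15.72 to 15.82 (mock) at 150-180 min, against 15.22 to 15.33 and 15.23 to 15.34 at 30-60 min. Of the macrophage markers only Cd14 passed the filter on low values, the defining marker Adgre1 averaged between 2.73 and 2.87 in the groups, and no epithelial, endothelial or lymphocyte marker passed.

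**Figure D1:**
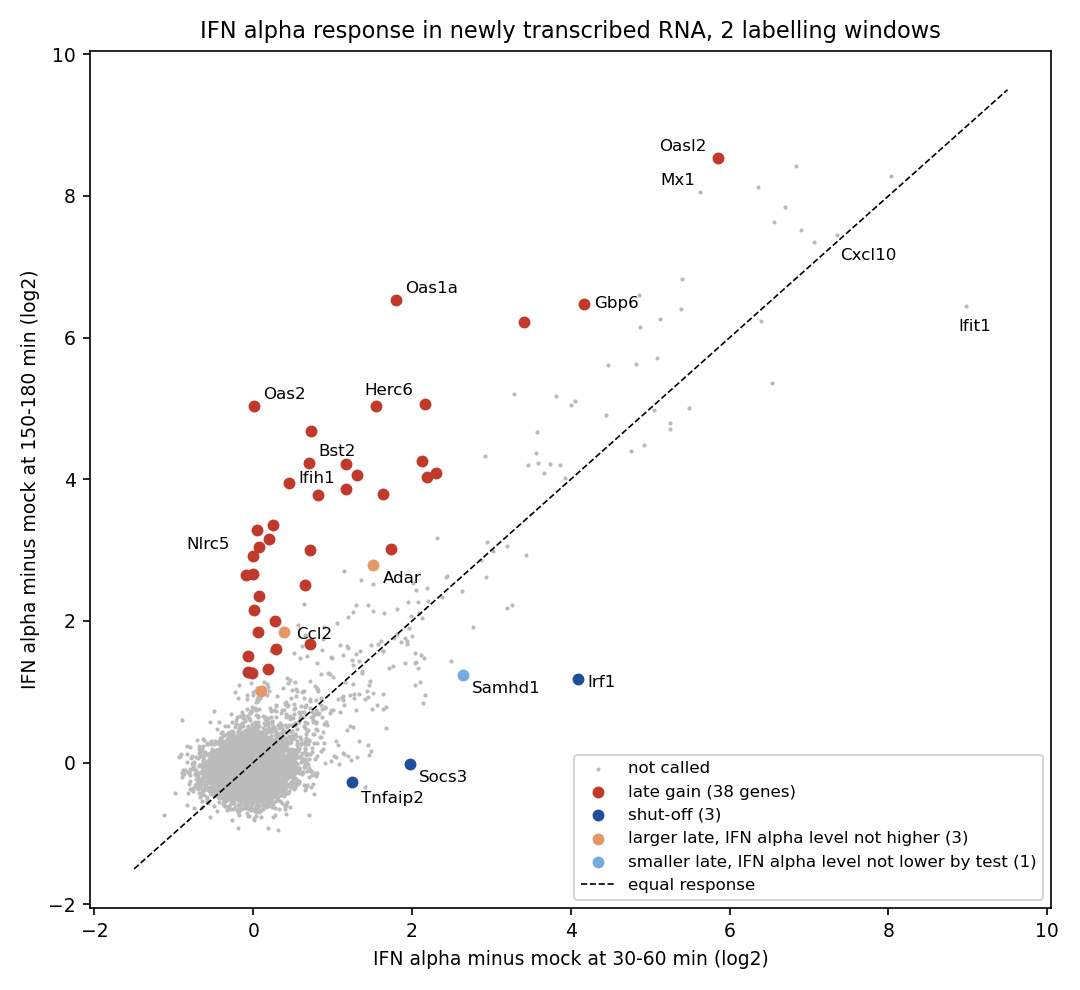
Response to IFN alpha (IFN alpha minus mock, log2) at 150-180 min against the response at 30-60 min, 1 point per tested gene (9549 genes), with the 45 called genes in colour and the dashed line where both are equal. The 38 late gain genes lie above the line, and the 3 shut-off genes Irf1, Socs3 and Tnfaip2 lie below it.

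Irf1 had the largest negative shift of all tested genes. Irf1 is a transcription factor that activates interferon and antigen presentation genes. Its level was 9.02, 8.93 and 8.97 in IFN alpha arrays and 7.85, 7.78 and 7.77 in mock arrays at 150-180 min. At 30-60 min it was 11.02, 11.25 and 11.4 in IFN alpha arrays and 6.95, 7.19 and 7.28 in mock arrays. All IFN alpha arrays of the later window lay below those of the earlier one and above the mock arrays of both. The response was 1.17 at 150-180 min (2.26-fold) against 4.09 at 30-60 min (17-fold), a shift of -2.91 ± 0.27 (limma, adjusted p = 3e-09, n = 3 arrays a group). At 0-30 min the response had been 2.15 (adjusted p = 2.93e-09), so over the 3 windows of 30 min it was 2.15, 4.09 and 1.17. The IFN alpha level itself fell by 2.25 (4.75-fold) between the windows, while the mock level rose by 0.66. The median mock rise over all tested genes was 0.55.

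Socs3, an inhibitor of cytokine receptor signalling that acts on Jak kinases, had no response left by the test at 150-180 min. Its level was 11.39, 10.83 and 10.92 in IFN alpha arrays and 11.24, 11.09 and 10.87 in mock arrays at 150-180 min, and 12.44, 12.7 and 12.83 in IFN alpha arrays and 10.58, 10.84 and 10.64 in mock arrays at 30-60 min. The later IFN alpha arrays overlapped the mock arrays of their window, whereas the earlier ones lay above theirs. The response was -0.02 at 150-180 min (adjusted p = 0.985) and 1.97 at 30-60 min, a shift of -1.99 ± 0.21 (limma, adjusted p = 5.31e-08).

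Tnfaip2, which is induced by tumour necrosis factor and belongs to the NF-kB targets, showed the same order. It was at 7.64, 7.52 and 7.21 in IFN alpha arrays and 7.85, 7.83 and 7.5 in mock arrays at 150-180 min, and at 9.75, 9.48 and 9.86 in IFN alpha arrays and 8.43, 8.33 and 8.6 in mock arrays at 30-60 min. The IFN alpha arrays overlapped the mock arrays in the later window and lay above them in the earlier. The response was -0.27 at 150-180 min (adjusted p = 0.767) and 1.24 at 30-60 min, and the shift was -1.52 ± 0.23 (limma, adjusted p = 5.87e-05). Here the mock level fell as well, by 0.72. Neither Socs3 nor Tnfaip2 was called at 0-30 min, with responses of 0.56 (adjusted p = 0.148) and 0.14 (adjusted p = 1.0). Of the 3 shut-off genes, Irf1 alone was still called higher than mock at 150-180 min.

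Samhd1, a dNTP hydrolase that restricts retroviruses, also had a smaller response late, but with a different course of its levels. It was at 8.48, 8.4 and 8.33 in IFN alpha arrays and 7.19, 7.28 and 7.05 in mock arrays at 150-180 min, against 8.57, 8.89 and 8.85 in IFN alpha arrays and 6.42, 6.15 and 5.82 in mock arrays at 30-60 min. The response was 1.23 late and 2.64 early, a shift of -1.41 ± 0.26 (limma, adjusted p = 0.00222). The mock level rose by 1.04. The change of the IFN alpha level, -0.37, did not pass the test (adjusted p = 0.0855), although its later arrays all lay below the earlier ones. The median tested gene rose by 0.55 in mock and 0.5 in IFN alpha arrays, and the levels were not corrected for this. In a fit with only the 12 arrays compared, the fall of the IFN alpha level passed and Samhd1 counted as shut-off (adjusted p of the shift 0.00402).

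Among the higher genes, Ccl2, Adar and Cask had a larger response late without a higher IFN alpha level. Ccl2, a chemokine that attracts monocytes, was at 12.61, 12.74 and 12.65 in IFN alpha arrays and 10.92, 10.68 and 10.87 in mock arrays at 150-180 min, and at 13.39, 13.16 and 13.46 and 13.01, 12.71 and 13.13 at 30-60 min. Its mock level fell by 2.12 and its IFN alpha level by 0.67, so the response was 1.84 late and 0.39 early (shift 1.45 ± 0.19, limma, adjusted p = 8.82e-06). Cask, a membrane-associated scaffold kinase, had a mock level that fell by 1.56 and an IFN alpha level that fell by 0.65 (shift 0.91 ± 0.18, adjusted p = 0.00519). Adar, an enzyme that deaminates adenosine in double-stranded RNA, had a mock level that fell by 1.33 and an IFN alpha level that differed by -0.05 (adjusted p = 0.798), with a shift of 1.27 ± 0.24 (adjusted p = 0.00339). This rests on 1 probe set: another of similar mean level (8.15 against 8.29) had a shift of 0.27 (adjusted p = 1.0). In each of these 3 genes the difference between windows thus lay in the mock level, which fell more than the IFN alpha level.

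**Figure D2:**
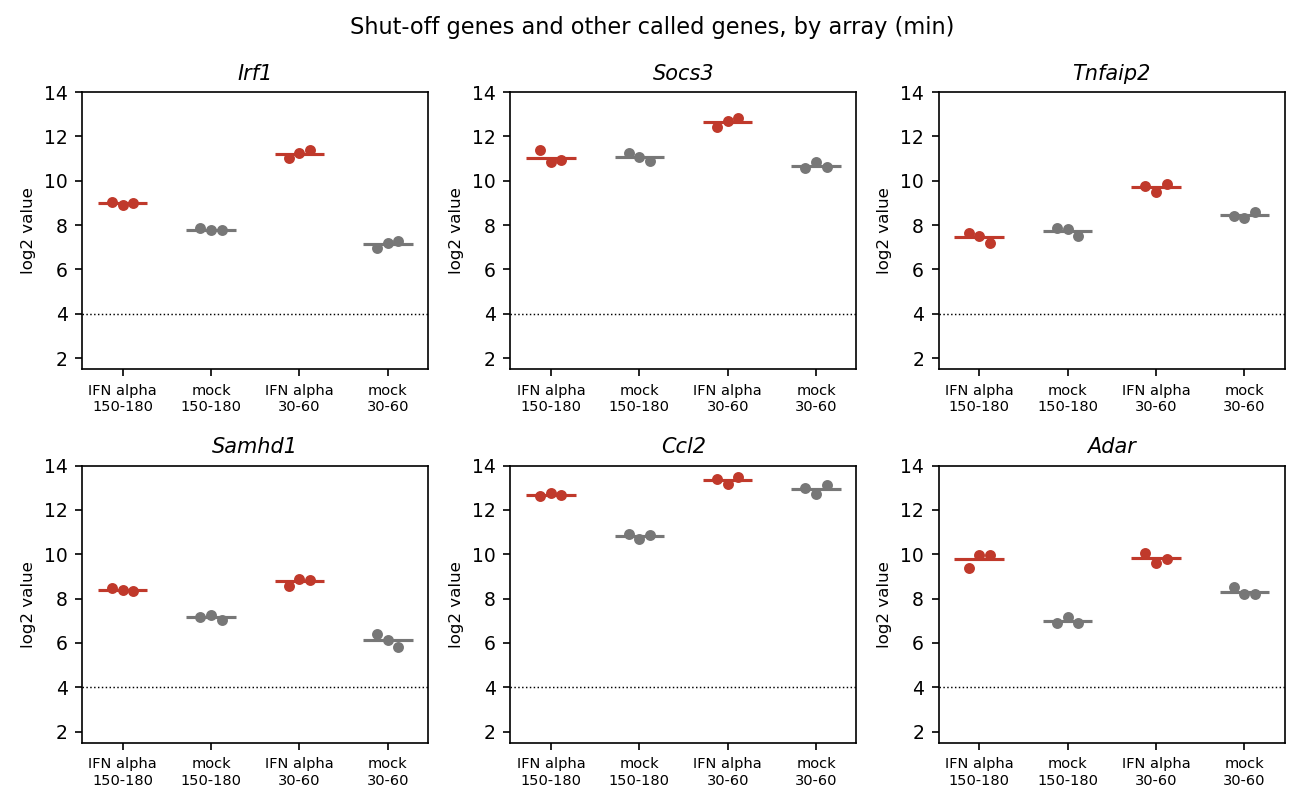
Level (log2) of Irf1, Socs3, Tnfaip2, Samhd1, Ccl2 and Adar on each of the 12 arrays, with IFN alpha arrays in red, mock arrays in grey and a bar at the mean of 3 arrays; the dotted line marks the filter at log2 4. The IFN alpha points of the shut-off genes lie lower at 150-180 min than at 30-60 min, while in Ccl2 and Adar the mock points lie lower.

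The 38 late gain genes had a median shift of 2.671, against -0.052 over all 9549 genes, with a range of 0.962 to 5.019. Their median response was 3.323 at 150-180 min and 0.678 at 30-60 min, against -0.102 and -0.036 over all genes. In 22 of the 38 the response at 30-60 min was not called, and in 16 it was already called (of all genes, 2.58% were called higher at 150-180 min and 2.4% at 30-60 min). Of the 22, 17 had all 3 IFN alpha arrays of 30-60 min under log2 4, and 12 had an early response of less than 0.1 in size. At 0-30 min 5 of the 38 were called (background 0.377%), Oas1a, Oas1b, Oasl2, Irf7 and Psmb9. The IFN alpha arrays of the later window lay above all those of the earlier window in 38 of 38, which was also the case for 56.4% of all tested genes. The change of their IFN alpha level between the windows ranged over 0.949 to 5.707, which the definition of late gain fixes in part. Their mock level was called higher in 4, Oas1a, Plac8, Sh2d6 and Serpinb9, against 53.4% of all tested genes. It was near the bottom of the scale, with all 6 mock arrays under log2 4 in 34 of the 38, where a change of mock such as the median of 0.55 could not be read, and folds against such values depend on how the background was removed from the intensities. In these bulk samples, more cells that respond and more RNA per responding cell cannot be told apart.

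Oas2 belongs to the group whose early response was not called, and its shift was the largest at the probe set tested per gene, although other probe sets of Ddx60 and Herc6 had larger ones (5.3 and 5.15). Oas2 is an oligoadenylate synthetase, an antiviral enzyme that is activated by double-stranded RNA. Its level was 7.42, 7.36 and 7.28 in IFN alpha arrays at 150-180 min. It was 2.32, 2.32 and 2.33 in mock arrays of that window, 2.3, 2.34 and 2.34 in IFN alpha arrays at 30-60 min and 2.32 in each mock array at 30-60 min. The later IFN alpha arrays alone lay apart. The shift was 5.02 ± 0.16 (limma, adjusted p = 2.86e-21), with responses of 5.03 late and 0.01 early. The other 9 arrays lay at the bottom of the scale, where the size of a log difference depends on the background removal. The error was pooled over all 36 arrays, on most of which Oas2 lay at this floor. It is therefore not the spread between arrays at an expressed level, and the p-value shares this limit.

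Nlrc5, which activates MHC class I genes, had the same form at a smaller size. It was at 5.44, 5.51 and 4.84 in IFN alpha arrays and 2.37, 2.35 and 2.34 in mock arrays at 150-180 min, and between 2.35 and 2.39 on all 6 arrays at 30-60 min. Its shift was 2.91 ± 0.18 (limma, adjusted p = 2.26e-13). Sp110, a nuclear body protein, and Uba7, the activating enzyme for the ubiquitin-like protein Isg15, also had early responses near 0 (0.08 and 0.05) and shifts of 2.97 ± 0.23 and 3.24 ± 0.25. Gbp2b, an interferon-induced GTPase, and Slfn4, a Schlafen family member, had early responses of 0 and shifts of 2.66 ± 0.15 and 2.15 ± 0.16. Sp110 and Slfn4 passed the filter on low values only through the IFN alpha arrays of 150-180 min, so their shifts are a description.

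Oas1a had a response in all windows, and the response grew late. Oas1a, another oligoadenylate synthetase, was at 10.44, 10.37 and 10.52 in IFN alpha arrays and 4.15, 3.91 and 3.67 in mock arrays at 150-180 min, and at 4.99, 4.54 and 4.69 in IFN alpha arrays and 2.78, 3.02 and 3.03 in mock arrays at 30-60 min. IFN alpha arrays lay above mock arrays in both windows. The responses were 2.64, 1.79 and 6.53 over 0-30, 30-60 and 150-180 min, and the shift was 4.74 ± 0.42 (limma, adjusted p = 1.14e-09). Oas1b and the pair Oasl1 and Oasl2, neighbours among the protein-coding genes of the RefSeq gene table (GRCm38.p6), had shifts of 2.9 ± 0.43, 2.97 ± 0.25 and 2.68 ± 0.64. Oasl1 had an early response of 0.2 that did not pass (adjusted p = 0.943), whereas Oasl2 had 5.86 early and 8.54 late. Near-identical Oas1 copies may hybridise to each other's probes, so Oas1a and Oas1b are not certain to be separate.

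Bst2 (tetherin), which holds budding virus particles at the cell surface, was at 8, 8.02 and 8.22 in IFN alpha arrays and 3.92, 3.71 and 3.92 in mock arrays at 150-180 min, and at 4.21, 4.04 and 4.38 and 3.35, 3.68 and 3.49 at 30-60 min. Its IFN alpha arrays lay above mock in both windows, but the early response of 0.7 did not pass the test (adjusted p = 0.0775). The shift was 3.53 ± 0.3 (limma, adjusted p = 4.2e-10). Cmpk2, a mitochondrial nucleotide kinase, had responses of 6.21 late and 3.41 early (shift 2.81 ± 0.64, adjusted p = 0.0269). Its neighbour Rsad2 (viperin), an antiviral radical SAM enzyme, had 8.13 and 6.35, a shift of 1.77 ± 0.84 that did not pass (adjusted p = 0.949) but did with only the 12 arrays compared (adjusted p = 0.0224).

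Of the 27 tested antiviral effectors, 8 had a higher shift (background 0.429%), 7 of them late gain plus Adar. Oasl1, counted here, passed the filter only through the IFN alpha arrays of 150-180 min. A lower shift was called in 1, Samhd1 (background 0.0419%). The median shift of the 27 was 0.696 against -0.052 over all genes. Several effectors with a large early response were not among the calls. Mx1, a dynamin-like GTPase that blocks viral replication, had responses of 8.06 late and 5.63 early, and its shift of 2.43 ± 0.6 missed the threshold (adjusted p = 0.0558). The error of Mx1 takes in the IFN alpha arrays of 0-60 min, which are outside the shift and had a standard deviation of 1.7. Mx1 passed in 8 of 27 alternatives, among them the fit of only the 12 arrays compared (adjusted p = 0.000271). Its relative Mx2 had 7.63 and 6.55, with a shift of 1.08 ± 0.61 (adjusted p = 1.0). Ifit3, which binds viral RNA, had 8.29 and 8.03, with a shift of 0.25 ± 0.57 (adjusted p = 1.0).

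Ifit1, which binds RNA lacking cap methylation, had the largest early response of all tested genes, and its shift of -2.53 ± 0.71 did not pass (limma, adjusted p = 0.172). It was at 13.11, 13.05 and 13.08 in IFN alpha arrays and 7.03, 6.74 and 6.14 in mock arrays at 150-180 min, and at 12.63, 13.3 and 13.16 in IFN alpha arrays and 3.72, 4.34 and 4.09 in mock arrays at 30-60 min. The IFN alpha arrays of the windows overlapped, and the mock level rose by 2.59 (adjusted p = 5e-05). The response was accordingly 6.45 late (87.1-fold) and 8.98 early (504-fold) over an IFN alpha level that differed by 0.05. With only the 12 arrays in the fit, Ifit1 passed with the same shift (adjusted p = 0.000524), as a gene whose IFN alpha level was not lower.

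**Figure D3:**
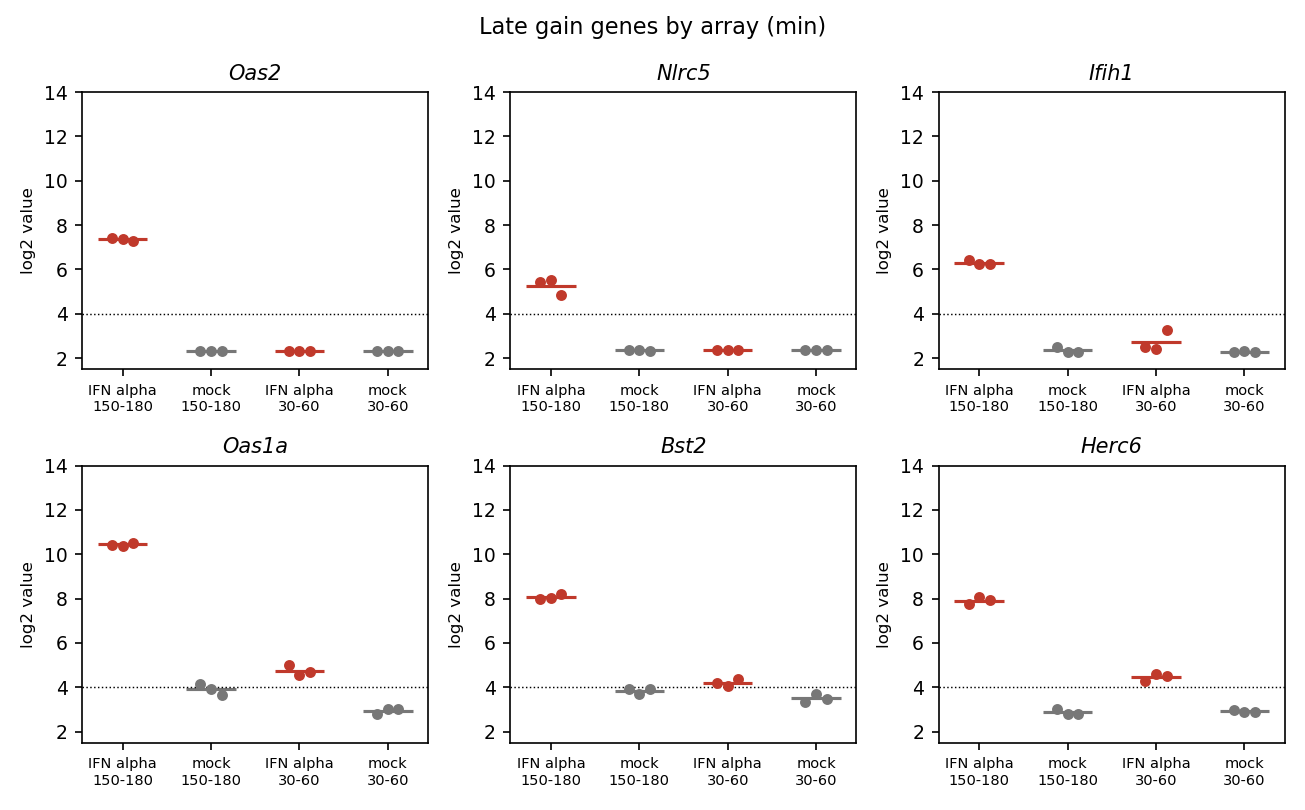
Level (log2) of 6 late gain genes on each of the 12 arrays, with IFN alpha arrays in red, mock arrays in grey and a bar at the mean of 3 arrays; the dotted line marks the filter at log2 4. Oas2 and Nlrc5 lie near 2 on all arrays except IFN alpha at 150-180 min, Ifih1 does so except for 1 IFN alpha array of 30-60 min at 3.29, while Oas1a, Bst2 and Herc6 already lie above their mock arrays at 30-60 min.

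Among the RNA sensors, Ifih1 gained its response late and Ddx58 had a large response in both windows. Of 12 tested sensors and adaptors, 4 had a higher shift (background 0.429%), all late gain, and 0 a lower one (background 0.0419%). Their median shift was 0.496, and 8 were already called higher than mock at 30-60 min (background 2.4%). Ifih1 (Mda5), which recognises long double-stranded RNA, was at 6.42, 6.26 and 6.23 in IFN alpha arrays and 2.5, 2.28 and 2.29 in mock arrays at 150-180 min, and at 2.51, 2.42 and 3.29 in IFN alpha arrays and 2.3, 2.31 and 2.28 in mock arrays at 30-60 min. Only the later IFN alpha arrays passed log2 4, and the shift was 3.5 ± 0.23. Ifih1 passed the filter only through these arrays, and Ddx60, given below, would not pass without them either. The shifts of both are thus a description, and the count of 4 includes both. Ddx58 (RIG-I), the related sensor of RNA with a 5′ triphosphate, had responses of 4.91 late and 4.45 early. Its shift of 0.47 did not pass (limma, adjusted p = 1.0). The other late gain sensors were Ddx60, a helicase (3.11 ± 0.33), Zbp1, which binds Z-form nucleic acids (2.96 ± 0.34), and Dhx58 (Lgp2), the third RIG-I-like receptor (1.85 ± 0.42, adjusted p = 0.0271). Dhx58 was already called at 30-60 min, with responses of 4.04 late and 2.19 early (adjusted p = 2.54e-06 for the early one). Sting1, the adaptor of cytosolic DNA sensing, had responses of 0.49 late and 1.67 early with a shift of -1.18 that did not pass (adjusted p = 1.0).

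Of 10 tested genes of the receptor, Janus kinases and ISGF3, 2 were called higher than mock in each window. These were Stat2, with responses of 4.02 late and 3.93 early, and Irf9, with 4.22 and 3.74. The shift was called in 0 of the 10 (median -0.006), which at a background of 0.429% higher and 0.0419% lower says little about 10 genes, and that of Stat2, 0.09 ± 0.59, has a large error. Of the 15 tested feedback inhibitors, Socs3 was called in the fit of all arrays (background 0.0419% lower). Socs1 had responses of 1.37 late and 1.26 early (shift 0.11 ± 0.48), and Usp18, which removes Isg15 from proteins and blocks the receptor Ifnar2, had 7.85 and 6.7 (shift 1.15 ± 0.71, adjusted p = 1.0). Cish, which inhibits Stat5 signalling, had a shift of -1.44 that did not pass (adjusted p = 0.119), with responses of -0.75 late and 0.7 early.

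The 14 tested transcription factors and nuclear regulators had a median shift of 0.407. Among them Irf1 was shut-off (background 0.0419% lower) and 4 were late gain (background 0.429% higher). Besides Nlrc5 and Sp110 these were Sp100, a nuclear body protein, with a shift of 2.7 ± 0.18, and Irf7, the regulator of interferon alpha genes. Sp110 entered this count only through the IFN alpha arrays of 150-180 min, without which it would not pass the filter. Irf7 was at 6.91, 6.88 and 6.34 in IFN alpha arrays and 2.5, 2.56 and 2.8 in mock arrays at 150-180 min, and at 4.79, 4.85 and 4.89 in IFN alpha arrays and 2.58, 2.52 and 2.51 in mock arrays at 30-60 min. IFN alpha arrays lay above mock arrays in both windows, with responses of 2.02, 2.31 and 4.09 over 0-30, 30-60 and 150-180 min and a shift of 1.78 ± 0.4 (limma, adjusted p = 0.0233). Thus Irf1 and Irf7 stood on opposite sides, with shifts of -2.91 and 1.78. Pml, which organises the nuclear bodies that hold Sp100, had responses of 2.07 late and 1.99 early (shift 0.08, adjusted p = 1.0).

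The Isg15 conjugation genes had 2 calls among 5 tested, both late gain (background 0.429% higher). Herc6, the ligase for Isg15 in mouse, was at 7.76, 8.05 and 7.92 in IFN alpha arrays and 3.02, 2.81 and 2.8 in mock arrays at 150-180 min, and at 4.3, 4.6 and 4.51 in IFN alpha arrays and 2.99, 2.9 and 2.88 in mock arrays at 30-60 min. All IFN alpha arrays lay above the mock arrays of their window, and the shift was 3.49 ± 0.21 (limma, adjusted p = 1.54e-13). The activating enzyme Uba7 was at 6.47, 6.64 and 6.13 in the later IFN alpha arrays and between 2.94 and 3.18 on the other 9. Trim25, another ligase of the group, had responses of 2.93 late and 3.44 early (shift -0.51, adjusted p = 0.702).

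The listed interferon-induced GTPases, which act on vacuoles of intracellular pathogens, had calls in 1 of their lists. Of 6 tested guanylate-binding proteins 2 were called higher (0.429% of all tested genes), Gbp2b and Gbp6, both late gain. Gbp6 had responses of 6.47 late and 4.17 early (shift 2.3 ± 0.44, adjusted p = 0.00352). Gbp2, which lies beside Gbp2b, had 5.72 and 5.09 (shift 0.63 ± 0.5, adjusted p = 1.0). Of the 5 tested genes on the list of immunity-related GTPases 0 were called in either direction, a count that depended on the fit. All 5 were called higher than mock in both windows, with median responses of 7.349 late and 6.833 early. The list does not hold Gm4951 and BC023105, late gain genes given below, so the count covers the listed genes only. Iigp1 had a shift of 1.59 ± 0.52 (adjusted p = 0.404) and Irgm1 one of -1.18 (adjusted p = 0.448). With only the 12 arrays compared, both passed with the same shifts (adjusted p = 0.0232 for Iigp1 and 0.0476 for Irgm1).

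Among 13 tested genes of MHC class I presentation 2 were called (background 0.429% higher), both immunoproteasome subunits of the late gain group. Psmb10 had a shift of 2.15 ± 0.42 (adjusted p = 0.00392) and Psmb9 one of 1.29 ± 0.3 (adjusted p = 0.0368). Tap1, the peptide transporter that neighbours Psmb9, had responses of 4.49 late and 4.93 early (shift -0.44 ± 0.4, adjusted p = 1.0). B2m, the invariant light chain, had 1.36 and 1.76 (shift -0.39 ± 0.29, adjusted p = 1.0).

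Chemokines and cytokines had 1 call among 20 tested, Ccl2 (background 0.429% higher). Its neighbour Ccl7 had a shift of 1.6 that did not pass (adjusted p = 0.121), with a mock level that differed by -2.23 and an IFN alpha level that differed by -0.62. Cxcl10, which attracts T cells, had responses of 7.45 late and 7.35 early (shift 0.1 ± 0.67, adjusted p = 1.0), while Cxcl9 had 0.84 and 2.13 (shift -1.29 ± 0.68, adjusted p = 1.0). Il15ra, the receptor chain that presents interleukin 15, was late gain with 4.08, 3.4 and 3.81 in the later IFN alpha arrays and 2.42 to 2.58 on the other 9 (shift 1.28 ± 0.27, adjusted p = 0.0102). Its late IFN alpha mean of 3.76 lies under log2 4, and the call was lost without IFN alpha array 1 of 150-180 min (adjusted p = 0.0628) and after adding 16 before the log (adjusted p = 0.442). The checkpoint ligand Cd274 (PD-L1) had responses of 4.97 late and 5.04 early (shift -0.07 ± 0.56, adjusted p = 1.0). Of 16 tested NF-kB targets, Tnfaip2 was the only one called (background 0.0419% lower).

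The remaining late gain genes fell in several groups. Trim30d, a ubiquitin ligase of the TRIM family, was the only call among 11 tested TRIM, PARP and Dtx3l genes (2.13 ± 0.31, background 0.429% higher). Tent5a, a poly(A) polymerase family member, had a shift of 2.74 ± 0.39, and Serpinb9, an inhibitor of granzyme B, one of 1.13 ± 0.27. Gm4951, BC023105 and LOC664787, named as on the array, had shifts of 3.95 ± 0.33, 3.04 ± 0.37 and 2.75 ± 0.31. Apol7a (2.29), Plac8 (2.28), Apod (1.86), Adamts6 (1.79), Ifi209 (1.73), Ascc3 (1.57), Greb1l (1.34), Sh2d6 (1.32) and Tmem140 (0.96) complete the 38. Ascc3, a helicase of the activating signal cointegrator complex, was expressed in all groups, at 9.42, 9.31 and 9.06 in IFN alpha arrays and 7.78, 7.77 and 7.72 in mock arrays at 150-180 min, and at 7.69, 7.52 and 7.48 in IFN alpha arrays and 7.9, 7.51 and 7.47 in mock arrays at 30-60 min. Its later IFN alpha arrays lay above all others. In 6 further lists there were 0 calls, a count near the background share of 0.429% higher and 0.0419% lower for lists of this size, among 12 tested cell death genes, 33 immediate-early genes, 11 Notch, TGF-beta and BMP targets, 20 glycolysis and hypoxia genes, 9 housekeeping controls and 15 fibroblast markers.

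**Figure D4:**
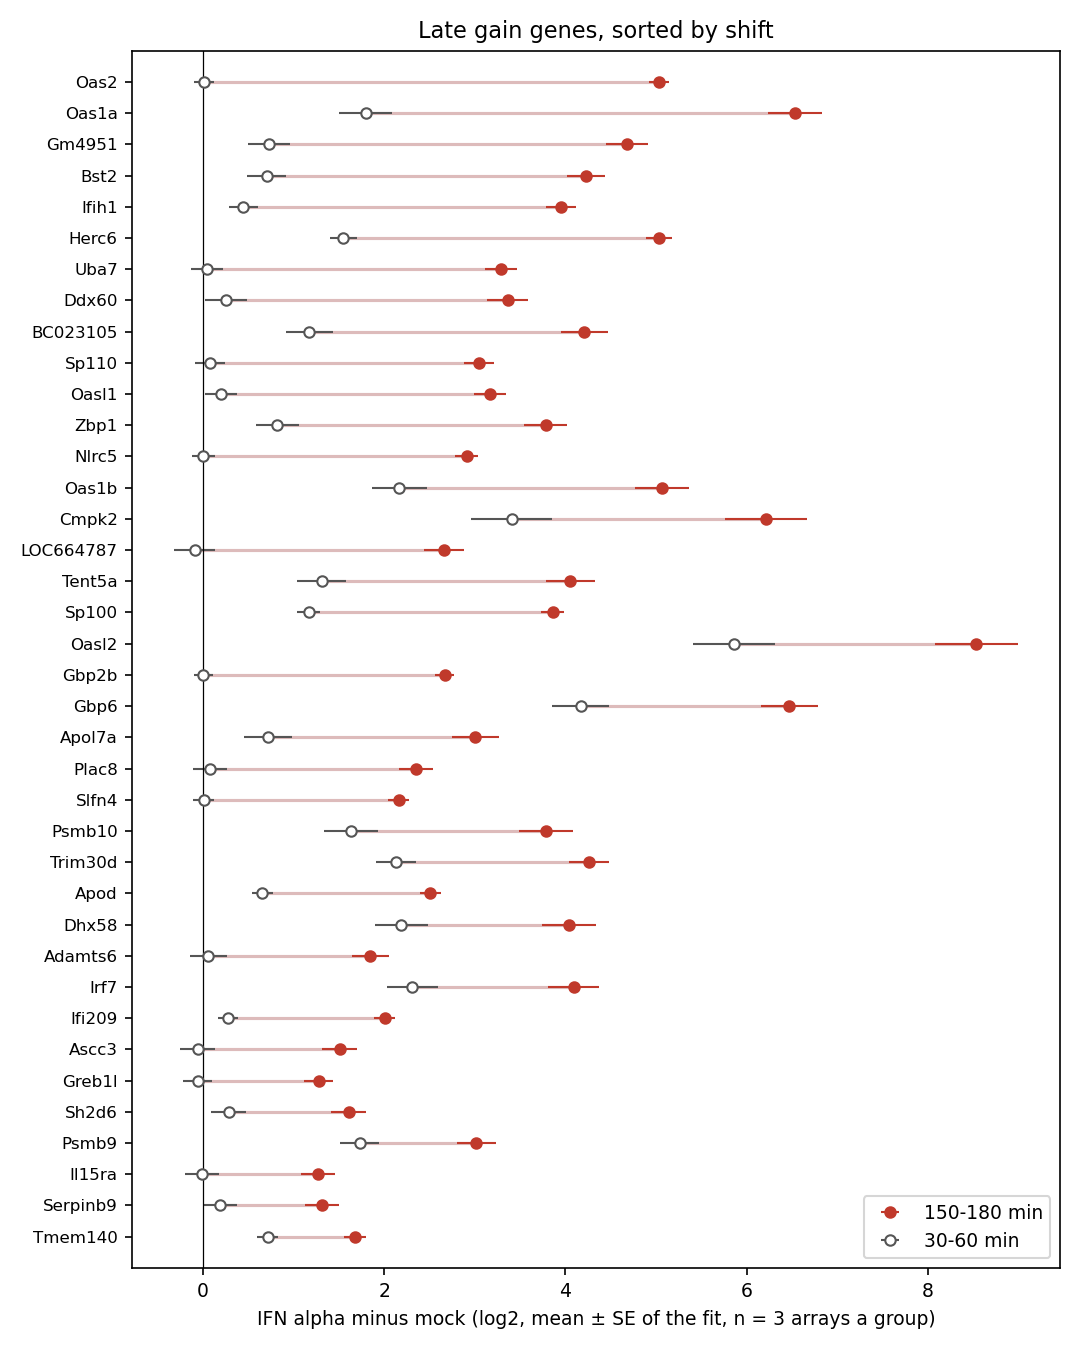
Response to IFN alpha (IFN alpha minus mock, log2, mean ± standard error of the fit, 3 arrays a group) of the 38 late gain genes at 150-180 min (filled) and at 30-60 min (open), sorted by shift. At the probe set tested per gene, shifts range over 5.02 (Oas2) to 0.96 (Tmem140), and many open points lie near 0.

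Most genes that responded in both windows had no called shift. Of 164 genes called higher than mock at 30-60 and at 150-180 min, 145 had a shift that was not called, with a median of 0.08, quartiles of -0.27 and 0.48, and 119 within 1 log2 unit of 0. Their median response was 1.92 late and 1.99 early. A missed threshold does not show that these responses were equal. The median standard error of the shift was 0.34 over the 164 genes and 0.3 over all genes, and the smallest called shift was 0.91 in size. Of the 65 genes called at 30-60 min only, 2 had a called lower shift, Socs3 and Tnfaip2, and of the 82 called at 150-180 min only, 24 had a called higher shift. In the 65 the median response was 0.31 late and 0.9 early, an order that the choice of these genes fixes in part.

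The calls nearest the threshold show how fine the line is. Just inside it lay Dhx58, Psmb9, Serpinb9 and Oasl2, with adjusted p-values of 0.0271, 0.0368, 0.0464 and 0.0494 from limma. Just outside lay 2610507B11Rik, Atp10a, Zc3hav1 and Isoc1, with shifts of -0.79, 1, -0.85 and -1.21 and adjusted p-values of 0.0503, 0.0527, 0.0527 and 0.0527. Zc3hav1 (ZAP), which directs viral RNA to decay, had responses of 1.92 late and 2.77 early over a mock level that rose by 1.18. When each of the 12 arrays was left out in turn, Cmpk2 lost its call in 11 of the 12 fits, Oasl2 and Psmb9 in 10 each, Irf7 in 9 and Dhx58 in 8. Irf1, Socs3, Tnfaip2 and Samhd1 kept theirs in 12 of 12.

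The shift of IFN alpha was set against that of IFN gamma (100 U/ml, 3 arrays in each of the same windows), which signals through its own receptor. The difference of the shifts, in which the mock arrays cancel, was higher for IFN alpha in 31 genes (0.325%) and lower in 68 (0.712%). All 3 shut-off genes were lower for IFN alpha. Shut-off genes were chosen by a fall of the IFN alpha level, which is also part of this difference, so the choice favours a lower value. Of the 3, Socs3 also had a called lower shift under IFN gamma (-0.9, limma, adjusted p = 0.0115, background 0.702%). Irf1 stayed high under IFN gamma, at 12.92, 12.81 and 12.92 at 150-180 min and 12.69, 13.24 and 13.05 at 30-60 min, and the shifts differed by -2.14 ± 0.27 (limma, adjusted p = 3.03e-06). Socs3 was at 13.63, 13.63 and 13.6 late and 14.16, 14.11 and 14.15 early under IFN gamma, and the shifts differed by -1.09 ± 0.21 (adjusted p = 0.00208). For Tnfaip2 the difference was -1.23 ± 0.23 (adjusted p = 0.0014).

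Of the 38 late gain genes, 14 had a shift that was larger under IFN alpha and 6 one that was larger under IFN gamma. Late gain genes were chosen by a rise of the IFN alpha level, which is also part of this difference, so the choice favours the 14. A called higher shift under IFN gamma too was present in 26 of the 38 (background 1.2%). Of the 38, 5 exceeded log2 4 on IFN alpha arrays of 150-180 min alone (Ifih1, Oasl1, Slfn4, Apod and Ifi209). These 5 passed the filter only through the group where they are high. Their larger shift under IFN alpha is thus a description, and they make up 5 of the 14. The same limit holds for Ddx60 and Sp110, also among the 14. Outside this group they exceeded log2 4 on fewer than the 3 arrays that the filter needs. Oasl1 was at 5.91, 5.55 and 5.38 under IFN alpha and 2.45, 2.42 and 2.45 under IFN gamma at 150-180 min. Its shifts differed by 3.03 ± 0.25. Ifih1 differed by 2.56 ± 0.23 and Oas2 by 2.23 ± 0.16 in the same direction. In the other direction Nlrc5 was at 5.44, 5.51 and 4.84 under IFN alpha and 7.59, 7.56 and 7.78 under IFN gamma at 150-180 min. Its shifts differed by -2.37 ± 0.18 (limma, adjusted p = 3.79e-11). The other 5 late gain genes with a larger shift under IFN gamma were Tmem140, Gbp6, Psmb10, Gbp2b and Il15ra, which include an immunoproteasome subunit and a pair of guanylate-binding proteins. Genes with no called shift under IFN alpha also differed: Cd274 by -3.89 and Gbp2 by -2.27.

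**Figure D5:**
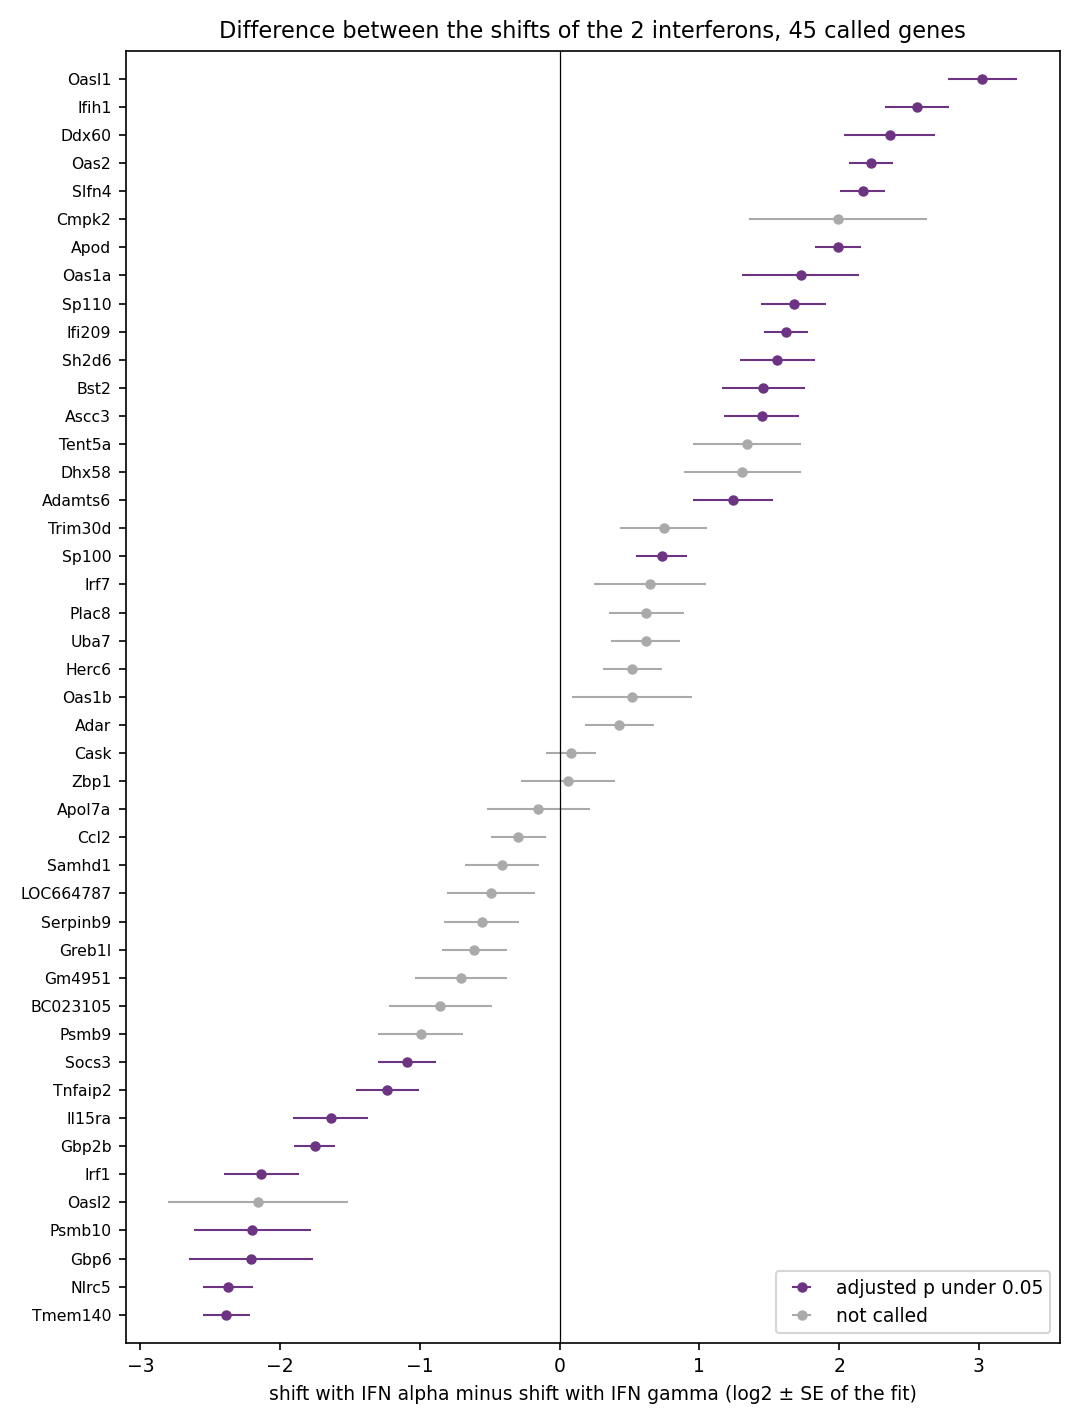
Difference between the shift under IFN alpha and the shift under IFN gamma (log2 ± standard error of the fit) for the 45 genes called under IFN alpha, with differences past an adjusted p of 0.05 in purple. Oasl1 lies highest (3.03), and the shut-off genes Irf1 (-2.14), Tnfaip2 (-1.23) and Socs3 (-1.09) lie among the negative values.

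Of the called genes, 27 late gain, 3 shut-off and 2 other genes had a promoter window in the RefSeq table. The ISRE core letters stood in 8 of the 27 late gain windows (29.6%). They also stood in 33 of 116 windows (28.4%) of genes called in both windows without a called shift. Their share was 3.49% of all 27025 windows of the same length and 2.96% of the 7826 windows of tested genes. The share was thus close between genes with and without a shift. The GAS letters stood in 2 of the 27 (7.41%) and 14 of the 116 (12.1%), and in Irf1 and Socs3 of the 3 shut-off genes. Their share was 8.47% of all windows and 6.62% of the windows of tested genes. Among late gain genes, the ISRE core letters stood in 5 of 15 windows (33.3%) of genes not called at 30-60 min and in 3 of 12 (25%) of those already called. The windows of Tnfaip2 and Herc6 held neither motif, which says only that these letters are not in these 300 bases.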

How the data were processed

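Newly transcribed RNA of NIH-3T3 cells was measured in 36 samples (12 groups of 3) on 1-colour Affymetrix arrays. The authors deposited log2 values normalised with GCRMA, per the submitters' processing notes; its version and the genome build are not given in the sources used here. No array was renormalised. Of 45101 probe sets, 34958 had 1 gene symbol in the platform annotation, 932 several and 9160 none; the 64 control probe sets were not tested. Probe sets over log2 4 on at least 3 of the 36 arrays were kept (17982), and 1 per gene, that with the highest mean, was tested (9549 genes). Group means of all 36 arrays were fitted with limma 3.58.1 (R 4.3.3, data.table version 1.17.8; residual df 24, prior df 6.8, intensity trend), with two-sided moderated tests and Benjamini-Hochberg adjustment over all genes at 0.05. The number of arrays limits the precision. All groups share 1 spread per gene, so many arrays at the bottom of the scale make its error small. Groups outside the contrast with a wide spread make it large.

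Late gain means a called higher shift, a called higher response at 150-180 min and a called higher IFN alpha level in that window. Shut-off means a called lower shift, a called higher response at 30-60 min and a called lower IFN alpha level at 150-180 min. The genes, lists and tests were chosen with earlier results of these data known. Genes are named from a panel, the 15 largest shifts in each direction with a mean of at least log2 6 in 1 of the 4 groups, up to 4 called members per list, the genes with a changed mock level, and the 5 largest differences from IFN gamma in each direction. Other called genes are given to complete the count, and uncalled list members and neighbours were picked as examples after their values were seen.

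Same-numbered IFN alpha and mock arrays deviated together at 30-60 min (r = 0.674, 0.61 and 0.327 over genes) but not throughout at 150-180 min (0.497, -0.286 and 0.536), so the numbers were not used as pairs. No arrays held identical values. The script was tested on simulated data. Alternatives were the filter, an added constant of 16, quantile or median scaling, all probe sets, only the arrays compared, no trend, weights for arrays, the replicate number as a block, a minimum of 2-fold and the removal of single arrays. Promoter windows and gene order came from RefSeq (GRCm38.p6); 13 called genes lacked one.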

Additional observations from a re-analysis of the deposited data

Results flagged for a closer look

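The IFN alpha response differed between 150-180 and 30-60 min in 45 genes by the test of the difference itself, described above.

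For 21 genes named by rule, the shift under IFN alpha differed from the shift under IFN gamma by the test of that difference (limma, adjusted p under 0.05). Over all tested genes the difference was called higher for IFN alpha in 0.325% and lower in 0.712%. A naming rule took genes with large differences from IFN gamma, so the choice of genes fixes the count of 21 in part. Genes chosen by that rule include Oas2, Oas1a, Bst2, Ifih1, Ddx60, Irf1, Socs3, Tnfaip2, Gbp6 and Psmb10. Among the 21, Oasl1, Ifih1, Slfn4, Ddx60 and Sp110 passed the filter only through the IFN alpha arrays of 150-180 min, so their differences are a description. The difference, IFN alpha minus IFN gamma in log2 units, was positive for Oasl1 (3.03), Ifih1 (2.56), Ddx60 (2.36), Oas2 (2.23), Slfn4 (2.17), Oas1a (1.73), Sp110 (1.67), Bst2 (1.46) and Sp100 (0.73). It was negative for Cd274 (-3.89), Ifit1 (-3.81), Nlrc5 (-2.37), Gbp2 (-2.27), Gbp6 (-2.21), Psmb10 (-2.2), Irf1 (-2.14), Gbp2b (-1.75), Il15ra (-1.64), Tnfaip2 (-1.23), Socs3 (-1.09) and Hk2 (-0.78). Hk2, a hexokinase of glycolysis, was at 9.33, 9.33 and 9.07 in IFN alpha arrays and 8.99, 9.23 and 9.17 in mock arrays at 150-180 min, and at 10.53, 10.66 and 10.65 in IFN alpha arrays and 9.93, 10.03 and 9.9 in mock arrays at 30-60 min. Its shift under IFN alpha alone was -0.55 ± 0.16 and did not pass (adjusted p = 0.241). With 3 arrays a group, single arrays were not tested as outliers.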

How the results depend on the processing

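Of the 45 called genes, 35 were recomputed one by one under the alternatives, and 0 of these reversed direction. Over the named genes and alternatives, 1411 values kept their direction and their side of the threshold, 66 lost the call and 32 gained it. The counts of calls depended more on the fit. Against 41 higher and 4 lower shifts, 38 late gain and 3 shut-off genes, 6123 genes called between the mock windows and 99 genes that differed from IFN gamma, leaving out 1 array of the 4 groups gave 34 to 42 higher, 4 to 8 lower, 31 to 39 late gain, 3 to 6 shut-off, 5500 to 6142 between the mock windows and 79 to 104 against IFN gamma. The arrays that moved the lower count to 7 or 8 were IFN alpha arrays 1 and 3 and mock array 1 of 30-60 min. No filter gave 8 lower and 5 shut-off, and a filter at log2 6 gave 25 late gain, since fewer genes were tested. Adding 16 gave 8 lower and quantile normalisation 10 lower. All 17982 kept probe sets gave 63 higher, 11 lower, 59 late gain, 7 shut-off and 10799 between the mock windows. Only the arrays compared gave 12 lower, 7 shut-off and 158 against IFN gamma, and the filter applied to the 12 arrays, chosen after seeing the data, gave 12 lower and 7 shut-off. Array weights gave 365 higher, 516 lower, 156 late gain, 51 shut-off and 391 against IFN gamma. Without array 1 of the mock cells labelled over the first hour there were 18 lower, 6 shut-off and 156 against IFN gamma. A minimum of 2-fold left 3173 between the mock windows. The arrays with the same number share only that number; with the replicate number as a block within windows there were 74 higher, 51 lower, 15 shut-off and 260 against IFN gamma, with only the arrays compared in addition 165 higher, 169 lower, 84 late gain, 33 shut-off and 501 against IFN gamma, and with a block over all windows 8 lower. Genes named above that passed with the block within windows include Cish (adjusted p = 0.00442), Ccl7 (0.000614), Iigp1 (0.00323), Irgm1 (0.0398), Mx1 (0.0145) and Ifit1 (0.000581), and Bcl3, an NF-kB target with a shift of -1.754, passed as well (0.00021). In the 30-60 min window every IFN alpha array correlated best with the mock array of its own number, and at 150-180 min array 2 did not. All 45 calls were also made under array weights, each block fit, the common median and without the mock array of the first hour, and 42 of them with only the arrays compared. The cause of these differences in count was not tested.

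The 4 lower and 41 higher genes are those that pass at this number of arrays; at an unadjusted p under 0.05 there were 288 lower and 193 higher. Of 15 called genes with 23 further kept probe sets, all 23 had the same sign and 14 were called. Levels under log2 4 carry no order between genes.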

Other observations

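With only the 12 arrays compared in the fit, 4 genes counted as shut-off beside Irf1, Socs3 and Tnfaip2: Samhd1, Slc66a2, Fst and Has2. They were looked at after these calls were seen, and the values beside them are from the fit of all arrays. Fst (follistatin), which binds activins, was at 7.26, 7.3 and 7.27 in IFN alpha arrays and 7.47, 7.33 and 7.46 in mock arrays at 150-180 min, and at 9.09, 9.08 and 9.16 in IFN alpha arrays and 8.39, 8.34 and 8.19 in mock arrays at 30-60 min. Its shift was -0.95 ± 0.26 and did not pass with all 36 arrays (limma, adjusted p = 0.129). Has2, a hyaluronan synthase of the cell surface, was at 9.88, 9.83 and 9.72 in IFN alpha arrays and 9.9, 9.9 and 9.88 in mock arrays at 150-180 min, and at 10.54, 10.56 and 10.62 in IFN alpha arrays and 9.97, 9.79 and 9.85 in mock arrays at 30-60 min. Its shift was -0.79 ± 0.29 (adjusted p = 0.602). In both genes the IFN alpha arrays of 30-60 min lay above the mock arrays of their window, while those of 150-180 min did not.

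At 150-180 min 11 genes (0.115%) were called lower than mock, and none of them had a called shift; the 3 given here were picked after their values were seen. Ndrg4 had a response of -0.92 late and -0.2 early (shift -0.72). Tgfb2, a ligand of the TGF-beta family, had -0.64 and -0.02 (shift -0.62), and Acss2, which makes acetyl-CoA from acetate, had -0.63 and -0.08 (shift -0.55).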
